A study of Mus musculus with 12 samples.

Results

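Batokines are factors that brown adipose tissue releases to act on its own cells or on other organs. The gene group described here holds 10 of them, Fgf21, Vegfa, Bmp8b, Nrg4, Gdf15, Il6, Igf1, Cxcl14, Slit2 and Pm20d1. They were taken by gene symbol from the 61210 genes of the count table, by a rule that uses no measured value. The list of symbols itself was chosen with earlier results of these data known. Each of the 10 symbols matched 1 row.

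Brown fat burns fatty acids and glucose to produce heat when noradrenaline from sympathetic nerves reaches its adipocytes in the cold. The tissue also secretes hormones and growth factors. Some act on distant organs, as FGF21 does through FGFR1 and its co-receptor beta-klotho, and others act nearby, as VEGFA does on the capillaries that supply the tissue. Transcript levels say nothing of how much protein was secreted, and the tissue holds stromal, vascular, immune and nerve cells beside its adipocytes.

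Total RNA of iBAT was sequenced from wild type C57BL/6N mice that were 20 weeks old, in 4 groups of 3 libraries. The paper's methods give the tissue as interscapular brown fat, while the series' own design text calls it inguinal. All mice ate Ssniff V1554 chow at first. The control diet groups (NCD) had no change of diet stated, and mice on the high-fat diet (HFD) changed to Ssniff D12492 (I) mod. at 8 weeks of age and ate it for 12 weeks. The RT groups were housed at 22 °C, and the cold groups were kept at 4 °C for 24 h. In bulk tissue, fewer cells of a type and less RNA per cell cannot be told apart. The labels do not state that replicates came from separate mice, so the p-values measure the spread between these libraries.

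Library totals lay between 15136861 and 46740702 counts, and replicate 3 of each group, a separate batch by the labels, was the deepest of its group. Spearman correlations between replicates of a group were 0.964 to 0.986 over the genes tested. All 10 brown adipocyte markers were expressed, and the uncoupling protein gene Ucp1 had a mean of 4203 CPM (counts scaled to a library of 1e+06 counts, with TMM-adjusted library sizes) in NCD RT and 16357 CPM in NCD cold. Skeletal muscle transcripts, summed over 12 markers, varied within every group, from 3105 to 19005 CPM in NCD RT and from 779.6 to 6228 CPM in HFD cold. One library stood apart for several of the genes below. It was replicate 1 of HFD cold, in which Gdf15, Fgf21 and 10 of 12 listed genes of the amino acid stress response were at their highest.

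Levels of different genes were compared only as CPM per kb of exon. On that scale the highest mean over the 12 libraries was that of Vegfa with 77.6 CPM per kb, followed by Nrg4 with 27.7 and Cxcl14 with 12.2. Fgf21 with 4.89, Pm20d1 with 4.87, Gdf15 with 3.65, Bmp8b with 3.15 and Igf1 with 1.73 CPM per kb formed a middle range whose order changed between groups. Without replicate 1 of HFD cold the mean was 1.96 CPM per kb for Fgf21 and 1.27 for Gdf15. Slit2 had 0.0401 and Il6 0.0166 CPM per kb. The 2 genes at the top were thus a growth factor for blood vessels and a neuregulin, and the interleukin was at the limit of detection.

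A gene was called in a contrast when edgeR's quasi-likelihood test gave a Benjamini-Hochberg adjusted p under 0.05 over all 16737 genes tested, written below as the edgeR adjusted p, and the absolute log2 fold change was over 0.5. Log2 fold changes are given with a standard error (SE) derived from the test, as the absolute log2 fold change divided by the square root of edgeR's F statistic. Libraries of the groups compared did not overlap in 27.8% of all genes tested for cold on NCD and 30.3% for cold on HFD. For HFD at RT this share was 25.9%, and for HFD in the cold 25.2%. No such share was counted for pairs of groups that differ in both diet and temperature. Of the 10 genes, 9 had enough counts to be tested. Gdf15 entered the test only through the HFD groups, since none of its NCD RT libraries and 1 of its NCD cold libraries was above the count filter.

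**Figure D1:**
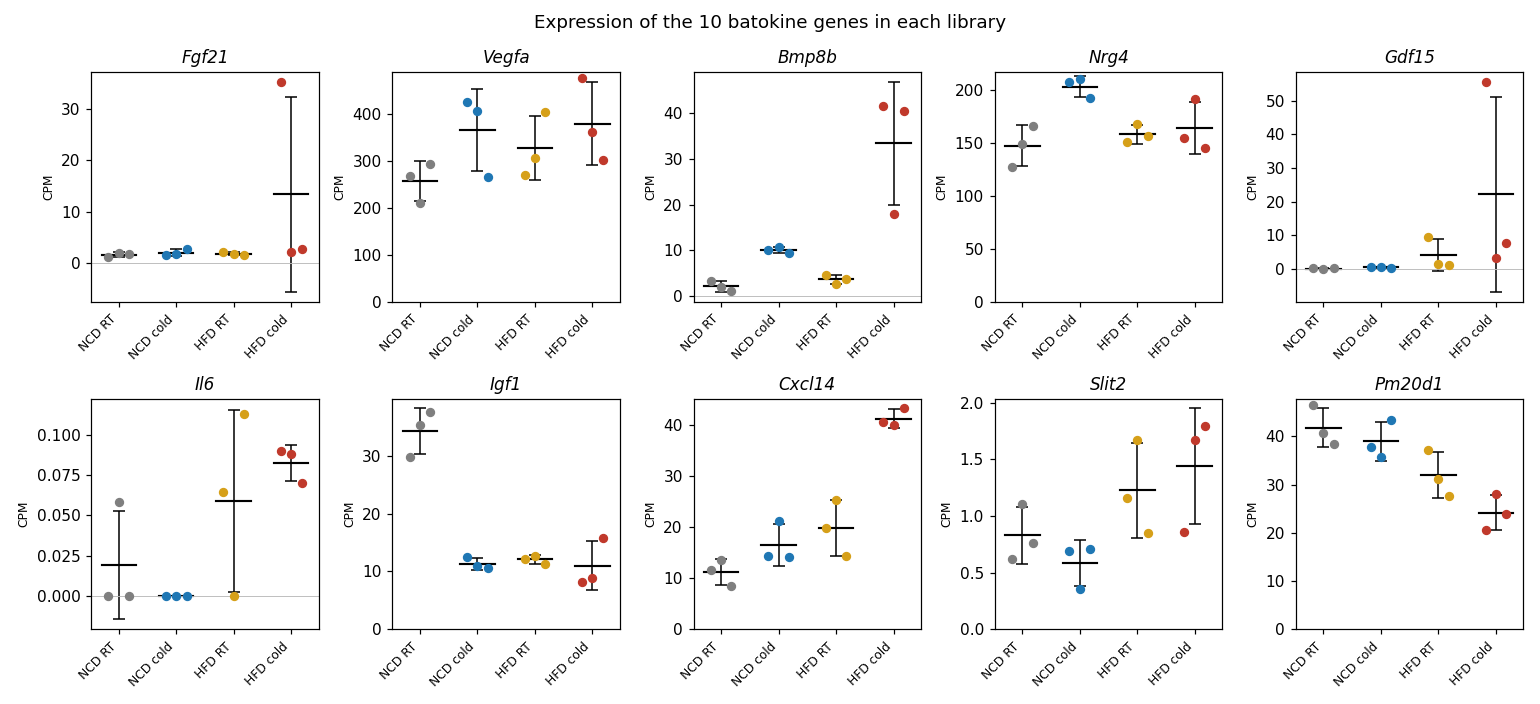
Expression of each of the 10 batokine genes in CPM (vertical axis, from its own range) in the 12 libraries, by group. Points are libraries in the order of replicates 1 to 3, horizontal bars are group means and error bars are SD (n = 3). Bmp8b rises in both cold groups, Igf1 is high in NCD RT only, Cxcl14 is highest in HFD cold, and in Fgf21 and Gdf15 replicate 1 of HFD cold lies far above the other libraries.

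Cold exposure on NCD changed 2 of the 9 genes tested. Bmp8b rose and Igf1 fell. In the background of all genes, 3.72% were called higher and 2.55% lower in this contrast. On HFD, cold also changed 2 of 9, Bmp8b and Cxcl14, both higher, where 5.39% of all genes were called higher and 4.19% lower. HFD at RT changed 1 of 9, Igf1, which fell, with 0.992% of all genes called higher and 1.09% lower. HFD in the cold changed 4 of 9. Bmp8b, Cxcl14 and Gdf15 were higher and Pm20d1 was lower, against 2.06% of all genes called higher and 2.69% lower. Gdf15 passed the count filter only through the HFD groups, so its place in this count depends on its HFD levels. In the interaction edgeR called 0 of 9, with 2 at an unadjusted p under 0.05, and DESeq2 called 1. Over all 16737 genes edgeR gave 1091 an unadjusted p under 0.05 there, and DESeq2 called 58. The 4 contrasts share groups with one another, so these counts are not independent.

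The median log2 fold change of the 9 genes was 0.46 for cold on NCD, where the median of all genes was -0.01, and 0.25 for cold on HFD, where it was -0.04. For HFD at RT the median was 0.35 beside 0.03 for all genes, and for HFD in the cold 1.28 beside 0.02. The 1.28 is the value of Slit2, a gene with low counts that was not called (edgeR adjusted p = 0.0934). In that contrast 6 of the 9 genes were above 0, and the values ranged from -0.69 to 5.46, so the median does not stand for a shift of the whole group. Both HFD medians include Gdf15, which was tested only because of its HFD levels. In the test of any difference among the 4 groups, called at an adjusted p under 0.001, 2 of 9 passed, Bmp8b with an edgeR adjusted p of 0.000249 and Igf1 with 0.000574, where 2.55% of all genes passed. Cxcl14 with an edgeR adjusted p of 0.00104 was just outside this threshold.

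**Figure D2:**
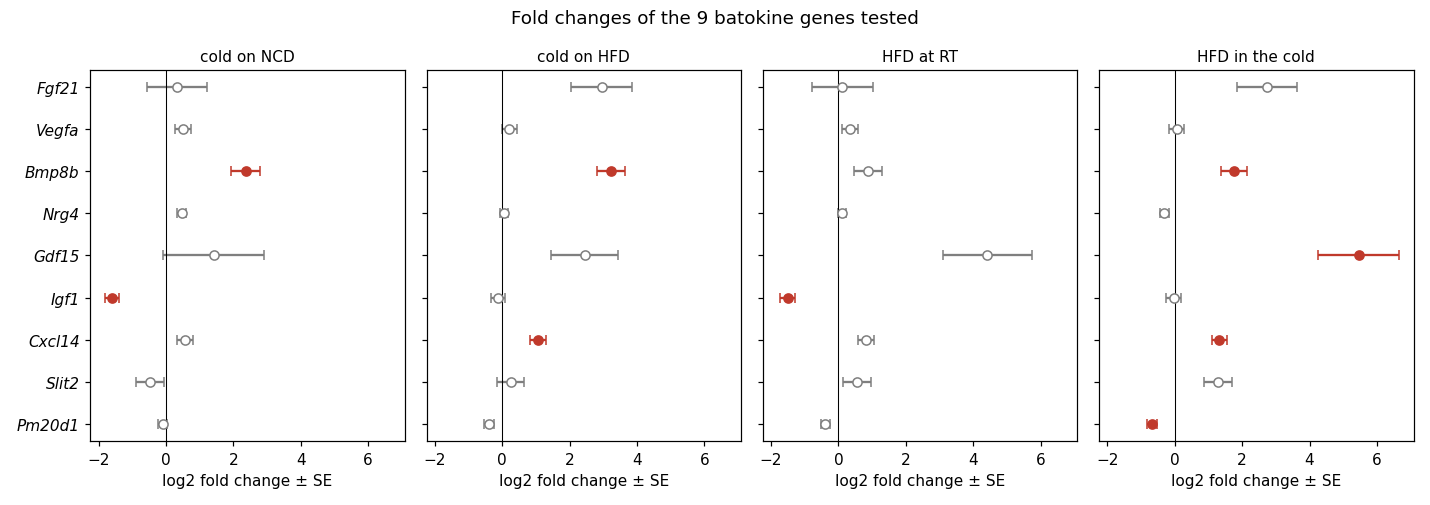
Log2 fold changes of the 9 batokine genes tested (horizontal axis, ± SE derived from edgeR's F statistic) in the 4 contrasts. Filled red points are called and open grey points are not. Bmp8b is called in 3 panels, Igf1 and Cxcl14 in 2 each, and Gdf15 and Pm20d1 in HFD in the cold alone.

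Bmp8b encodes a bone morphogenetic protein that brown adipocytes make, and it is known for raising their response to sympathetic input. Its exons lie on chromosome 4 (GRCm38, chr4:123105165-123132099, plus strand). In NCD RT its levels were 3.23, 1.80 and 1.00 CPM in replicates 1 to 3, and in NCD cold 9.92, 10.7 and 9.30 CPM. In HFD RT they were 4.44, 2.61 and 3.61 CPM, and in HFD cold 41.7, 17.9 and 40.6 CPM. On either diet every cold library was above every RT library, as in 15.2% of all genes tested on NCD and 15.9% on HFD. In the cold every HFD library was above every NCD library, as in 12.1% of all genes.

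The means were 2.01 ± 1.13 CPM in NCD RT, 9.96 ± 0.675 in NCD cold, 3.56 ± 0.917 in HFD RT and 33.4 ± 13.4 in HFD cold (SD, n = 3). Cold raised Bmp8b 5.13-fold on NCD (log2 fold change 2.36, SE 0.42, edgeR adjusted p = 0.0079) and 9.41-fold on HFD (3.23, SE 0.41, edgeR adjusted p = 0.00111). These 2 calls held in all 12 fits that left out 1 library each, with log2 fold changes of 1.99 to 2.88 on NCD and 3.06 to 3.53 on HFD. Within batch 1 alone, which has 2 libraries a group, the cold change on NCD was 2.03 and no longer passed (edgeR adjusted p = 0.0779), and on HFD it was 3.09 and passed (edgeR adjusted p = 0.0289).

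Between the diets, Bmp8b was 3.36-fold higher on HFD than on NCD in the cold (log2 fold change 1.75, SE 0.38, edgeR adjusted p = 0.0279). This call held in 7 of 12 fits with 1 library left out. It was lost without any single NCD cold library and without replicate 1 or 3 of HFD cold, while the log2 fold change stayed between 1.58 and 2.05. The call was also lost within batch 1 alone and in a fit of only the 6 libraries compared. At RT the difference between diets was 0.87 (SE 0.42, edgeR adjusted p = 0.303). The difference of the cold change between diets, the interaction, was also 0.87 (SE 0.56, edgeR adjusted p = 0.825), so a larger rise on HFD was not shown.

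Part of the Bmp8b exons overlaps Ppie on the opposite strand, and whether reads were counted by strand is not stated. Ppie itself had a log2 fold change of 0.18 for cold on NCD (edgeR adjusted p = 0.599). The close relative Bmp8a held 0 to 4 counts in every library, and how the quantification split reads between the 2 genes was not tested. Over the 12 libraries the genes most like Bmp8b in log2 CPM were Mif with a Pearson r of 0.98 and Upp1 with 0.98. These values were picked as the highest of 16736 genes and describe the 4 groups as much as the libraries.

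Bmp8b is the called batokine gene with the largest cold change in both diets, and its RefSeq start region is shown for that reason. The 250 bases before its RefSeq start (GRCm38.p6, chr4:123104911-123105160, plus strand, 5′ to 3′) hold 1 hypoxia response element core in capitals, at -112 to -108 from the start. The core was searched as ACGTG on both strands, and 16.6% of 32851 such mouse windows hold it.

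Bmp8b: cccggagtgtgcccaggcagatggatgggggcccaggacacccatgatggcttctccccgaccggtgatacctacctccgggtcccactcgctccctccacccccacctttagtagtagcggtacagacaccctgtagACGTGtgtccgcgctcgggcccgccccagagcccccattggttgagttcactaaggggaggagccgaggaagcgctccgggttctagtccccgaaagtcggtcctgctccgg

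Neither the core of the cAMP response element (TGACG) nor the amino acid response element (TGATGNAA) occurs in those letters, on either strand. These are letter matches and not binding measurements.

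Cxcl14 encodes a chemokine that thermogenic adipocytes secrete and that attracts macrophages. Its gene lies at chr13:56288643-56296551 on the minus strand (GRCm38). Levels were 11.6, 13.7 and 8.57 CPM in NCD RT and 14.3, 21.2 and 14.1 CPM in NCD cold. HFD RT had 19.8, 25.4 and 14.4 CPM, and HFD cold had 40.6, 40.0 and 43.4 CPM. The HFD cold libraries lay above those of HFD RT, as in 15.9% of all genes tested, and above those of NCD cold, as in 12.1%. They were also above NCD RT, and close to one another.

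Cold raised Cxcl14 2.09-fold on HFD, from 19.9 ± 5.49 to 41.3 ± 1.82 CPM (SD, n = 3, log2 fold change 1.06, SE 0.23, edgeR adjusted p = 0.0143). On NCD the change was 0.56 (SE 0.23, edgeR adjusted p = 0.189), and the difference between these 2 changes was 0.51 (SE 0.33, edgeR adjusted p = 0.825). In the cold Cxcl14 was 2.51-fold higher on HFD than on NCD (1.33, SE 0.23, edgeR adjusted p = 0.0107). Cold on HFD was called in all 12 fits with 1 library left out. HFD in the cold was called in 10 of them and lost without replicate 1 or 3 of NCD cold.

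At RT the diet difference in Cxcl14 was 0.82 (SE 0.23, edgeR adjusted p = 0.0986), with every HFD library above every NCD library. The same separation was found in 13% of all genes tested. DESeq2 called the diet difference, with a log2 fold change of 0.80. Within batch 1 alone the change for cold on HFD was 0.83 (edgeR adjusted p = 0.0799) and for HFD in the cold 1.18 (edgeR adjusted p = 0.0871), both short of the threshold. The gene most like Cxcl14 over the 12 libraries was Cpt1a, which carries fatty acids into mitochondria, with r = 0.95.

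The sum of endothelial markers followed the same order of groups as Cxcl14. Summed over the 9 markers found, the list lay at 784 to 918 CPM in NCD RT, 1021 to 1169 in NCD cold, 1081 to 1337 in HFD RT and 1330 to 1548 in HFD cold. By group means, Tek was highest in HFD RT, and Emcn and Vwf were higher in NCD cold than in HFD RT. The rest of the list kept the order. Of these 9 markers, 1 was called higher for cold on NCD and 1 for HFD at RT, where 3.72% and 0.992% of all genes were called higher. In the other 2 contrasts 0 were called. For cold on HFD 3 of the 9 had an unadjusted p under 0.05, as had 4595 of all 16737 genes tested. For HFD in the cold 4 of the 9 had one, as had 3802 of all genes. Of 10 macrophage markers, 2 were called higher for HFD in the cold (median log2 fold change 0.82), where 2.06% of all genes were. For cold on HFD 1 was called higher (median 0.47), where 5.39% of all genes were. For cold on NCD and HFD at RT 0 were called, with medians of -0.40 and 0.08. Whether the number of vessel cells or macrophages has a part in the Cxcl14 values was not tested.

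Cxcl12, another chemokine, also rose in the cold. It had 80.9 ± 5.88 CPM in NCD RT, 184 ± 27.1 in NCD cold, 124 ± 30.6 in HFD RT and 234 ± 46.2 in HFD cold (SD, n = 3). Its log2 fold change was 1.18 on NCD (SE 0.19, edgeR adjusted p = 0.00517) and 0.92 on HFD (SE 0.19, edgeR adjusted p = 0.0109).

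Igf1 encodes insulin-like growth factor 1, which acts on nearby cells when made outside the liver. Its gene lies at chr10:87858265-87937042 on the plus strand (GRCm38). NCD RT had 29.9, 35.3 and 37.6 CPM, and NCD cold had 12.5, 10.9 and 10.5 CPM. HFD RT had 12.2, 12.8 and 11.3 CPM, and HFD cold had 8.24, 8.89 and 15.8 CPM. The NCD RT libraries lay above those of NCD cold, as in 12.6% of all genes tested, and above those of HFD RT, as in 12.9%. They were also above HFD cold, and the other 3 groups overlapped.

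Cold on NCD lowered Igf1 3.04-fold, from 34.3 ± 3.98 to 11.3 ± 1.05 CPM (SD, n = 3, log2 fold change -1.60, SE 0.22, edgeR adjusted p = 0.00207). HFD at RT lowered it 2.84-fold, to 12.1 ± 0.740 CPM (-1.50, SE 0.22, edgeR adjusted p = 0.00698). Both changes are taken against the same NCD RT libraries. Both were called in all 12 fits with 1 library left out, with log2 fold changes of -1.69 to -1.53 and -1.62 to -1.46. They also passed within batch 1 alone, with -1.48 (edgeR adjusted p = 0.0152) and -1.38 (edgeR adjusted p = 0.0332).

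With the other treatment already given, neither change passed. Cold on HFD gave a log2 fold change of -0.13 (SE 0.22, edgeR adjusted p = 0.733), and HFD in the cold gave -0.03 (SE 0.22, edgeR adjusted p = 0.957). The interaction was 1.47 (SE 0.31) with an unadjusted p of 0.000507 and an edgeR adjusted p of 0.339, so it did not pass over all genes. DESeq2 called it, with 1.497 and an adjusted p of 0.0045. Among all genes 0% were called in the interaction by edgeR, which gave 1091 genes an unadjusted p under 0.05, and DESeq2 called 58.

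The sum of stromal and fibroblast markers was also highest in NCD RT. Summed over 12 markers, the list lay at 1586 to 2378 CPM in NCD RT, 791 to 888 in NCD cold, 891 to 1242 in HFD RT and 618 to 1157 in HFD cold. Its largest means in NCD RT were those of the collagen genes Col3a1, Col1a2 and Col1a1, with 812, 349 and 250 CPM. Cd34, Dpt and Thy1 had a higher mean in another group, and the rest of the list was highest in NCD RT. Cd34 had a mean of 39.0 CPM in NCD RT and 59.3 in HFD cold. For cold on NCD 5 of the 12 fell and 0 rose, where 2.55% of all genes were called lower and 3.72% higher. The median log2 fold change of the list was -0.70 there. For HFD at RT edgeR called 0, and the median was -0.20. In that contrast 4 of the 12 had an unadjusted p under 0.05, as had 3033 of all 16737 genes tested. No gene of that list was at 0 in all libraries. The 10 macrophage markers lay at 129 to 161 CPM in NCD RT, 90.8 to 131 in NCD cold, 124 to 186 in HFD RT and 122 to 295 in HFD cold, an order that differs from that of Igf1. The part of these cells in the Igf1 values was not tested.

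**Figure D3:**
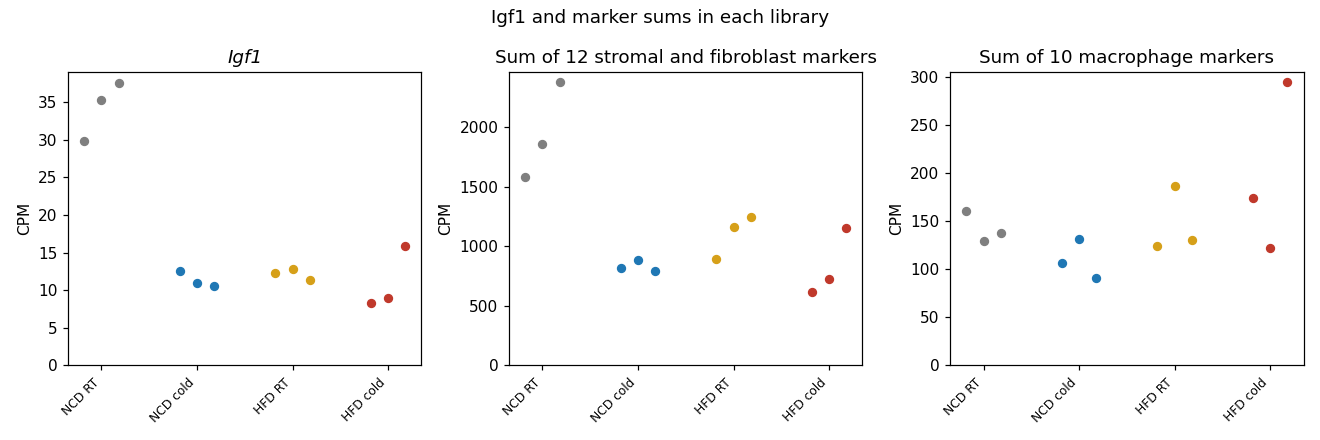
Igf1 in CPM beside the summed CPM of 12 stromal and fibroblast markers and of 10 macrophage markers (vertical axes) in each library, by group. Points are libraries in the order of replicates 1 to 3. NCD RT is highest for Igf1 and for the stromal sum, and the macrophage sum is highest in replicate 3 of HFD cold.

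Igf1r, the receptor, had log2 fold changes between -0.01 and 0.42 in the 4 contrasts and was not called. Insr, the related insulin receptor, rose in the cold on NCD from 220.4 ± 11.2 to 323 ± 30.5 CPM (SD, n = 3, log2 fold change 0.55, SE 0.11, edgeR adjusted p = 0.0147). Igfbp5, a binding protein that holds IGF1 in the matrix, fell in the cold on NCD from 127 ± 21.2 to 67.2 ± 4.52 CPM (-0.92, SE 0.16, edgeR adjusted p = 0.00659). The genes most like Igf1 over the 12 libraries were Recql4 and Slc25a10, each with r = 0.94.

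Gdf15 and Fgf21 encode 2 hormones that cells release under metabolic or mitochondrial stress, GDF15 acting on the brainstem and FGF21 on brain and fat. Gdf15 lies at chr8:70629393-70632456 and Fgf21 at chr7:45613886-45615490, both on the minus strand (GRCm38). Gdf15 counts were 5, 0 and 9 in NCD RT and 12, 9 and 15 in NCD cold, which equals 0 to 0.688 CPM. They were 148, 31 and 47 in HFD RT, or 9.53, 1.62 and 1.33 CPM, and 1231, 77 and 335 in HFD cold, or 55.4, 3.39 and 7.81 CPM. Every HFD library was above every NCD library, and the libraries within each HFD group were far apart. Of all genes tested, 13% were higher on HFD without overlap at RT and 12.1% in the cold.

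Gdf15 was higher on HFD than on NCD in the cold, with means of 22.2 ± 28.8 and 0.524 ± 0.167 CPM (SD, n = 3, log2 fold change 5.46, SE 1.20, edgeR adjusted p = 0.0286). Without replicate 1 of HFD cold the log2 fold change was 3.50 and did not pass (edgeR adjusted p = 0.0905). It was also lost without any single NCD cold library, and held in 8 of 12 such fits. Within batch 1 alone it was 5.58 (edgeR adjusted p = 0.183), and a fit of only the 6 libraries compared did not call it.

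At RT the log2 fold change of Gdf15 with HFD was 4.42 (SE 1.32, edgeR adjusted p = 0.112), which did not pass. It passed with DESeq2 (4.52, adjusted p = 0.00901), without the count filter (4.42, edgeR adjusted p = 0.0154) and without replicate 1 of HFD cold (4.42, edgeR adjusted p = 0.0485). Without replicate 1 of HFD RT it fell to 2.93 (edgeR adjusted p = 0.248). Cold on HFD gave 2.45 (SE 1.00, edgeR adjusted p = 0.138), with overlapping groups. With replicate numbers blocked inside each diet it was 2.15 and passed (edgeR adjusted p = 0.00659), and without replicate 1 of HFD cold it was 0.48 (edgeR adjusted p = 0.773). On NCD cold gave 1.41 (SE 1.49, edgeR adjusted p = 0.662) at counts of 15 or fewer.

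Fgf21 had 1.06, 1.86 and 1.79 CPM in NCD RT and 1.49, 1.65 and 2.77 CPM in NCD cold. HFD RT had 2.00, 1.73 and 1.44 CPM, and HFD cold had 35.2, 2.03 and 2.75 CPM. Only replicate 1 of HFD cold, with 783 counts, was set apart, and the other 11 libraries lay within 1.06 to 2.77 CPM. No Fgf21 contrast was called.

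Cold on HFD gave Fgf21 a log2 fold change of 2.96 (SE 0.91, edgeR adjusted p = 0.0578), and HFD in the cold gave 2.72 (SE 0.89, edgeR adjusted p = 0.0972). Without replicate 1 of HFD cold these were 0.51 (edgeR adjusted p = 0.421) and 0.30 (edgeR adjusted p = 0.764). Without the count filter both passed, with 2.96 (edgeR adjusted p = 0.0079) and 2.69 (edgeR adjusted p = 0.0251), and cold on HFD also passed when replicate 2 or 3 of HFD cold was left out. With replicate numbers blocked inside each diet, cold on HFD gave 1.79 (edgeR adjusted p = 0.1), and with a skeletal muscle score in the model 2.11 (edgeR adjusted p = 0.207). On NCD the cold change was 0.34 (SE 0.89, edgeR adjusted p = 0.884), and with the muscle score it was -0.12.

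The same library was high in genes of the amino acid stress response, which the transcription factor ATF4 is known to switch on. This list of 12 genes, among them Asns, Trib3 and Ddit3, was chosen after these values were seen. Summed, it reached 819 CPM in replicate 1 of HFD cold, 267 in replicate 2 and 438 in replicate 3, and 209 to 328 CPM in the other 9 libraries. For 10 of the 12 genes, replicate 1 of HFD cold was the highest library. Asns, asparagine synthetase, had 131 CPM there and 35.6 to 80.6 CPM elsewhere, and Trib3 had 48.3 CPM there and 4.53 to 10.05 CPM elsewhere. The exceptions were Chac1 and Aldh1l2. Chac1 had 12.8 CPM in that library and 13.8 CPM in replicate 2 of NCD cold. Aldh1l2 went the other way, with 0.540 CPM in that library and 2.06 CPM in replicate 3 of NCD RT. The part of this response in the Gdf15 and Fgf21 values was not tested.

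**Figure D4:**
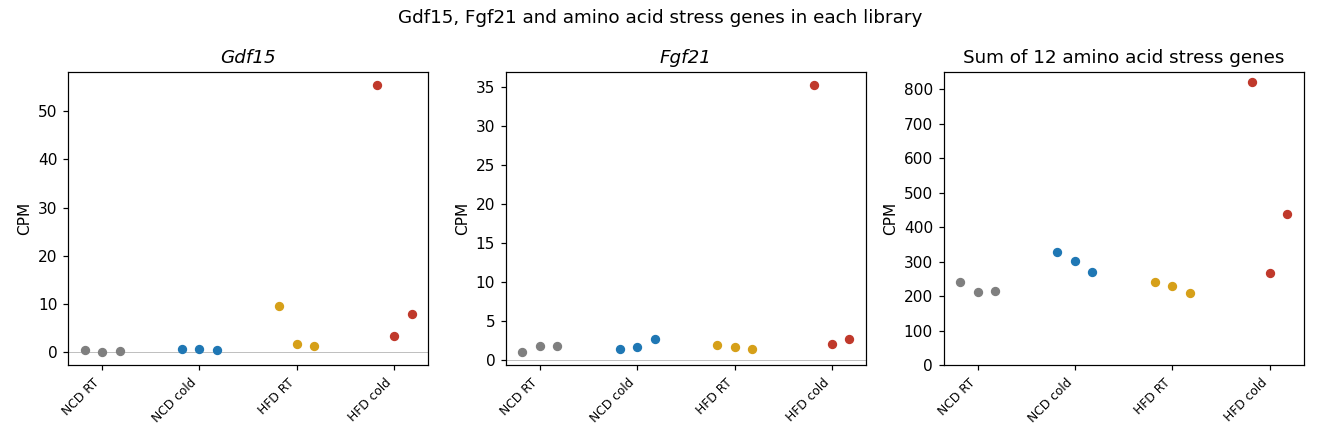
Gdf15, Fgf21 and the summed level of 12 amino acid stress response genes in CPM (vertical axes) in each library, by group. Points are libraries in the order of replicates 1 to 3. Replicate 1 of HFD cold is the highest library in all 3 panels, with 55.4, 35.2 and 819 CPM.

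The windows of 250 bases before the RefSeq starts of these 2 genes are shown because they were high in the same library. For Fgf21 (GRCm38.p6, chr7:45615491-45615740, minus strand) the capitals mark, from 5′ to 3′, an amino acid response element at -139 to -132, a cAMP response core at -68 to -64 and a hypoxia response element core on both strands, which overlap at -50 to -45. The amino acid response element was searched as TGATGNAA on both strands and occurs in 3.45% of the 32851 windows, and the cAMP response core TGACG in 17.8%. For Gdf15 the window before the upstream of its 2 RefSeq starts (chr8:70632457-70632706, minus strand) holds none of the 3 motifs, and the window before the other start holds the hypoxia core.

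Fgf21: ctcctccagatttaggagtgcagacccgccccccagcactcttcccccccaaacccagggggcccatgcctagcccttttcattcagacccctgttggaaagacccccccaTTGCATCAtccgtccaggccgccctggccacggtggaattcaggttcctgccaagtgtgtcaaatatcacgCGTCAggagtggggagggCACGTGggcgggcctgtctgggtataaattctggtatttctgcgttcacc

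Gdf15: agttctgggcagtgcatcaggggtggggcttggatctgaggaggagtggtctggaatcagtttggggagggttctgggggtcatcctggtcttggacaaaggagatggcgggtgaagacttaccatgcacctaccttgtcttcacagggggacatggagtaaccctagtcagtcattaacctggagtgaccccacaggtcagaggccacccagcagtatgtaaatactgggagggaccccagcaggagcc

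Of the 10 genes, 9 matched RefSeq windows and Fgf21 was the 1 gene with a match to the amino acid response element. Such a match does not show that a factor bound there, and the absence of one says only that these letters are not in this window.

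Fgfr1 and Klb, which encode the FGF21 receptor and its co-receptor beta-klotho, were both expressed. Klb had 74.4 ± 34.6 CPM in NCD RT, 74.6 ± 23.3 in NCD cold, 41.5 ± 13.3 in HFD RT and 38.4 ± 5.93 in HFD cold (SD, n = 3). Its log2 fold change with HFD was -0.84 at RT (SE 0.33, edgeR adjusted p = 0.203) and -0.96 in the cold (SE 0.33, edgeR adjusted p = 0.109), neither of which passed. Fgfr1 stayed between means of 56.4 and 72.1 CPM. Gfral, the receptor of GDF15 in the brainstem, had 0 counts in all 12 libraries.

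Another member of the FGF family, Fgf9, rose in the cold on HFD. Its means were 1.77 ± 0.470 CPM in NCD RT, 3.71 ± 0.531 in NCD cold, 4.52 ± 2.06 in HFD RT and 12.0 ± 1.22 in HFD cold (SD, n = 3). The log2 fold change was 1.41 for cold on HFD (SE 0.29, edgeR adjusted p = 0.0114) and 1.68 for HFD in the cold (SE 0.30, edgeR adjusted p = 0.0107). For cold on NCD it was 1.07 (SE 0.31, edgeR adjusted p = 0.059) and for HFD at RT 1.34 (SE 0.31, edgeR adjusted p = 0.0504), neither of which passed. The interaction was 0.34 (SE 0.42, edgeR adjusted p = 0.921), so a larger rise on HFD was not shown. The genes most like Gdf15 over the 12 libraries were the matrix gene Thbs1 with r = 0.98 and Trim2 with r = 0.95.

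Pm20d1 encodes a secreted enzyme that joins fatty acids to amino acids, and its products uncouple respiration without UCP1. It lies at chr1:131797381-131821473 on the plus strand (GRCm38). Levels were 46.4, 40.6 and 38.4 CPM in NCD RT and 37.8, 35.6 and 43.4 CPM in NCD cold. HFD RT had 37.2, 31.1 and 27.7 CPM, and HFD cold had 20.7, 28.0 and 23.9 CPM. The HFD libraries were below the NCD libraries at either temperature, as in 12.9% of all genes tested at RT and 13.1% in the cold.

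In the cold Pm20d1 was 1.61-fold lower on HFD, with means of 24.2 ± 3.68 against 38.9 ± 4.02 CPM (SD, n = 3, log2 fold change -0.69, SE 0.15, edgeR adjusted p = 0.0253). The call held in 8 of 12 fits with 1 library left out and was lost without replicate 1 or 3 of either cold group. Within batch 1 alone it was -0.59 (edgeR adjusted p = 0.207), and a fit of only the 6 libraries compared did not call it. At RT the difference was -0.39 (SE 0.15, edgeR adjusted p = 0.196), cold on HFD gave -0.40 (SE 0.15, edgeR adjusted p = 0.0997), and cold on NCD gave -0.10 (SE 0.15, edgeR adjusted p = 0.763). The relative Pm20d2 was not called in any of these contrasts, with log2 fold changes of -0.52 to 0.12.

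Zdhhc4 with r = 0.99 and Dtd2 with r = 0.99 were most like Pm20d1 over the 12 libraries.

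Nrg4 encodes neuregulin 4, a ligand of ERBB4 and ERBB3 that brown fat makes in quantity and that acts on liver and on sympathetic nerves. Its gene lies at chr9:55220222-55326844 on the minus strand (GRCm38). Levels were 127, 149 and 166 CPM in NCD RT and 207, 209.98 and 192 CPM in NCD cold. HFD RT had 150.4, 168 and 156 CPM, and HFD cold had 155, 192 and 145 CPM. The NCD cold libraries lay above NCD RT and HFD RT, and by a narrow gap above HFD cold, while HFD RT and HFD cold overlapped. Of all genes tested, 15.2% were higher without overlap for cold on NCD and 13.1% lower for HFD in the cold.

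Cold on NCD gave Nrg4 a log2 fold change of 0.46 (SE 0.13, edgeR adjusted p = 0.0499), which passed the p threshold but not the minimum of 0.5, so it was not called. Cold on HFD gave 0.05 (SE 0.13, edgeR adjusted p = 0.835), HFD at RT gave 0.10 (SE 0.13, edgeR adjusted p = 0.723) and HFD in the cold gave -0.31 (SE 0.13, edgeR adjusted p = 0.174). The interaction was -0.41 with an unadjusted p of 0.0409 and an edgeR adjusted p of 0.742. Fbxo22 overlaps Nrg4 on the opposite strand and was called lower in the cold on NCD (-0.73, SE 0.19, edgeR adjusted p = 0.0445), the reverse of Nrg4.

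Erbb4, the receptor of NRG4, fell with cold on both diets. Its means were 17.8 ± 4.12 CPM in NCD RT, 8.36 ± 2.67 in NCD cold, 20.0 ± 3.37 in HFD RT and 8.46 ± 1.34 in HFD cold (SD, n = 3). The log2 fold change was -1.09 on NCD (SE 0.25, edgeR adjusted p = 0.0219) and -1.25 on HFD (SE 0.25, edgeR adjusted p = 0.00905). Erbb3 had means of 5.79 to 7.37 CPM and was not called.

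Vegfa encodes the main growth factor for blood vessels and lies at chr17:46016993-46032369 on the minus strand (GRCm38). Levels were 267, 211 and 293 CPM in NCD RT and 426, 406 and 265 CPM in NCD cold. HFD RT had 271, 307 and 404 CPM, and HFD cold had 476, 361 and 301 CPM. HFD cold was above NCD RT by a narrow gap, and the other pairs of groups overlapped. None of the contrasts passed, the nearest being cold on NCD with a log2 fold change of 0.51 (SE 0.23, edgeR adjusted p = 0.223).

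Endothelial cells express its receptor genes. Kdr had 194 ± 48.7 CPM in NCD RT, 272 ± 26.6 in NCD cold, 279 ± 26.5 in HFD RT and 389.8 ± 45.1 in HFD cold (SD, n = 3), with log2 fold changes of 0.48 to 0.52 in the 4 contrasts and edgeR adjusted p from 0.098 to 0.149. Flt1 had log2 fold changes of 0.19 to 0.49 and was not called, nor was the relative Vegfb, at -0.53 to -0.14.

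Slit2 encodes a guidance protein of which a cleaved fragment is released by thermogenic fat. It lies at chr5:47983138-48307733 on the plus strand (GRCm38). Counts were low, from 6 to 77 a library. Levels were 0.622, 1.10 and 0.759 CPM in NCD RT, 0.688, 0.353 and 0.710 CPM in NCD cold, 1.16, 1.67 and 0.847 CPM in HFD RT, and 0.855, 1.67 and 1.79 CPM in HFD cold. The libraries of both HFD groups were above the NCD cold libraries, and the other pairs of groups overlapped. HFD cold lay above NCD cold without overlap in 12.1% of all genes tested.

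HFD in the cold gave Slit2 a log2 fold change of 1.28 (SE 0.41, edgeR adjusted p = 0.0934), and no contrast passed. The receptor Robo4, found on endothelial cells, had its largest log2 fold change with HFD at RT, 0.67 (SE 0.17, edgeR adjusted p = 0.0633). Robo1 lay between -0.36 and -0.07 and Slit3 between 0.05 and 0.30, none of them called.

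Il6 encodes interleukin 6, and its 13 counts were too few to pass the count filter. It lies at chr5:30013114-30019981 on the plus strand (GRCm38). Counts of 0 were found in 6 of the 12 libraries, among them all 3 of NCD cold, and the highest count was 4, in replicate 3 of HFD RT. A count of 0 allows up to 3 counts, which is 0.0710 to 0.187 CPM in the libraries at 0, for counting error only. HFD cold had 2, 2 and 3 counts. In a fit without the filter, over 37458 genes, HFD in the cold gave an unadjusted p of 0.0273 and an edgeR adjusted p of 0.325, and no contrast was called. The receptor genes Il6ra, with 8.47 to 17.8 CPM over the libraries, and Il6st were expressed and not called.

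**Figure D5:**
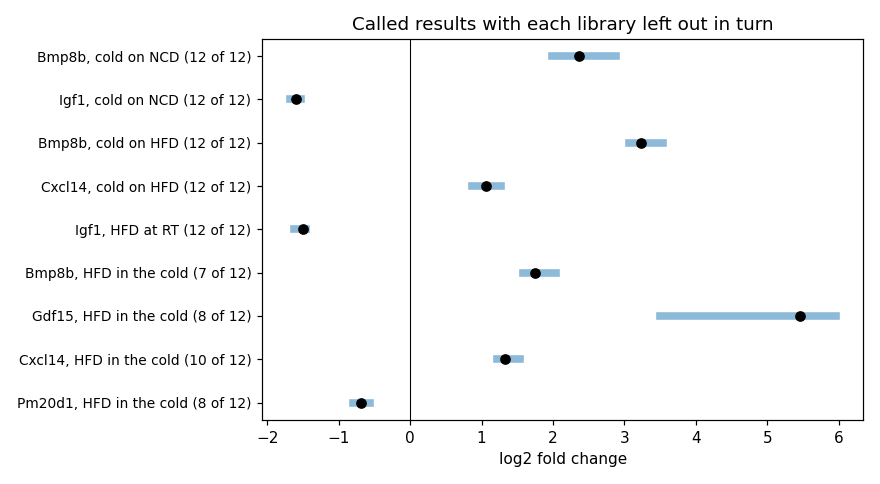
Log2 fold changes (horizontal axis) of the 9 calls made for batokine genes, with points for all 12 libraries and blue bars for the range over the 12 fits that left out 1 library each. The numbers of fits in which the call held stand beside each gene. Calls for cold and for HFD at RT held in all 12 fits, and those for HFD in the cold in 7 to 10.

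Receptors, binding proteins and relatives of the batokines were also counted. Of 25 receptor genes 22 were tested. For cold on NCD 1 rose and 1 fell, with 3.72% of all genes called higher and 2.55% lower. For cold on HFD 1 fell, with 4.19% of all genes called lower. For either diet contrast 0 were called, and 5 each had an unadjusted p under 0.05. Of all 16737 genes tested, 3033 had one for HFD at RT and 3802 for HFD in the cold. Of 14 binding proteins 9 were tested, with 2 called lower for cold on NCD. In cold on HFD, HFD at RT and HFD in the cold edgeR called 0, while 1, 1 and 3 had an unadjusted p under 0.05. Over all genes tested these contrasts had 4595, 3033 and 3802 such genes. Beside Igfbp5, the binding protein called lower for cold on NCD was Chrdl1, an antagonist of bone morphogenetic proteins (log2 fold change -0.86, SE 0.22, edgeR adjusted p = 0.0394).

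Of 29 relatives of the same families 19 were tested. For cold on NCD 1 rose, for cold on HFD 2 rose, for HFD at RT 1 fell and for HFD in the cold 1 rose. All 23 other secreted factors of brown fat were tested, and 3 were called in each contrast, while the share of all genes called differed between contrasts. They were 1 higher and 2 lower for cold on either diet, 3 higher for HFD at RT, and 2 higher and 1 lower for HFD in the cold. The shares of all genes called higher were 3.72% for cold on NCD, 5.39% for cold on HFD, 0.992% for HFD at RT and 2.06% for HFD in the cold, and those called lower 2.55%, 4.19%, 1.09% and 2.69%.

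Angpt1, an angiopoietin that steadies vessels, was the secreted factor that fell on both diets in the cold, from 25.1 ± 2.17 to 8.78 ± 3.39 CPM on NCD and from 17.5 ± 1.20 to 5.97 ± 2.11 CPM on HFD (SD, n = 3). Its log2 fold changes were -1.50 (SE 0.29, edgeR adjusted p = 0.0119) and -1.54 (SE 0.29, edgeR adjusted p = 0.00762). Kng2, a kininogen gene, rose in the cold on NCD (0.84, SE 0.21, edgeR adjusted p = 0.0305), and Fst, the activin antagonist follistatin, fell (-1.17, SE 0.31, edgeR adjusted p = 0.041). On HFD cold lowered the retinol carrier gene Rbp4 (-1.12, SE 0.26, edgeR adjusted p = 0.0197) and raised Lcn2, a lipocalin (1.87, SE 0.54, edgeR adjusted p = 0.0456).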

How the data were processed

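Total RNA of iBAT was depleted of ribosomal RNA, and paired-end libraries (TruSeq) were made for 12 samples. The authors filtered reads with cutadapt and quantified them with salmon against GENCODE M22 and RNAcentral 5 (GRCm38). Per gene, the deposited values are estimated counts in whole numbers, not normalized, and replicates were not pooled. Groups and batches followed the labels.

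Low counts were removed by filterByExpr of edgeR 4.0.16 (minimum count 10, R 4.3.3), TMM scaled the libraries, and all 12 entered 1 quasi-likelihood fit with a mean for each group. A floor of 3 counts was used for libraries at 0. Levels per kb used exon lengths of GENCODE M21, from which the coordinates also come. Likeness of genes was the Pearson r of log2 CPM (prior count 2). The 2 genes most like each called batokine gene were named, except 1 that is not reported here. Every batokine gene was named, the other lists by counts, and from the receptor, binding protein, relative and secreted factor lists the genes with the smallest adjusted p in the cold contrasts and direct receptors and relatives. The members and lists were chosen with earlier results of these data known. The edgeR fit was also run on simulated counts with changes set for cold on NCD alone. The other contrasts and steps were not tested in this way.

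Same-numbered RT and cold libraries deviated together within NCD (r of 0.219, 0.456 and 0.281) and within HFD (0.155, 0.217 and 0.386), so a replicate block within diet was fitted as an alternative. The source of this pairing is not stated. Alternatives also covered DESeq2 1.42.0, other size factors and filters, batch and muscle terms, batch 1 alone, the 6 libraries compared and each library left out. Batch 2 has 1 library a group and was not fitted alone.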

Additional observations from a re-analysis of the deposited data

How the results depend on the processing

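Of 9 batokine genes tested, 2 were called for cold on NCD and 2 on HFD, 1 for HFD at RT and 4 in the cold. In batch 1 alone they were 1 for cold on NCD, 1 for cold on HFD, 0 for HFD in the cold and 0 in the 4-group test, with 8 libraries instead of 12. For HFD at RT DESeq2 called 3, no filter 2 and the replicate block across groups 3. With the 6 libraries compared alone HFD in the cold had 1, Cxcl14, and the calls of Bmp8b, Gdf15 and Pm20d1 were lost. In the interaction DESeq2 called 1. Across diets, same-numbered libraries correlated at -0.211 to 0.365, so they share only a number. The 4-group test called 2, but 5 with DESeq2, 5 without filter and 6 at an adjusted p under 0.05. The replicate block within diet gave 2 for cold on NCD and 3 for cold on HFD, where Gdf15 was added, and 0 in the interaction. It was not fitted for the diet contrasts or the 4-group test, since diet means cannot be told from such blocks. With 1 library left out the counts ranged from 1 to 2 for HFD at RT, from 0 to 5 for HFD in the cold and from 0 to 2 in the 4-group test.

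Directions turned only for changes that were never called. With the skeletal muscle score in the model, Fgf21 was at -0.12 for cold on NCD and -0.0027 for HFD at RT, and in batch 1 alone Slit2 was at -0.17 for cold on HFD. With 1 library left out, Fgf21 ranged from -0.0054 to 0.50 for cold on NCD and from -0.12 to 0.23 for HFD at RT, and the Gdf15 interaction from -0.92 to 2.53. Igf1 ranged from -0.50 to 0.0676 for cold on HFD and from -0.40 to 0.17 for HFD in the cold, Nrg4 from -0.0785 to 0.13 for cold on HFD and from -0.0179 to 0.17 for HFD at RT, and Vegfa from -0.14 to 0.20 for HFD in the cold. The cause of these changes was not tested. Apart from leaving out single libraries, the call was kept in 85 of 94 pairs of a called result and an alternative fit. These pairs repeat the same calls over many settings and are not independent. Depth limits Il6, Slit2 and Gdf15 on NCD.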

Other observations

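For Bmp8b and Nrg4, over the deviations of the 12 libraries from their group means, the Pearson r of log2 CPM was -0.93, the lowest of all pairs among the 9 batokine genes tested, and it was chosen after these values were seen. In HFD cold, replicate 2 had the lowest Bmp8b, at 17.9 CPM beside 41.7 and 40.6, and the highest Nrg4, at 192 CPM beside 155 and 145. In NCD RT, replicate 1 had the highest Bmp8b, at 3.23 CPM beside 1.80 and 1.00, and the lowest Nrg4, at 127 CPM beside 149 and 166. In HFD RT, replicate 2 had the lowest Bmp8b, at 2.61 CPM, and the highest Nrg4, at 168 CPM. In NCD cold the order was shared, since replicate 2 was highest and replicate 3 lowest for both genes. The libraries share batches and the scaling of each library applies to both genes.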
